A study of Mus musculus with 12 samples.

Results

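The endoplasmic reticulum (ER) is the compartment in which secreted and membrane proteins are folded, and the genes described here encode its folding machinery and the machinery that degrades what fails to fold. The list held 35 genes, named by gene symbol, and 34 of them were measured among the 22180 genes tested. Pdia4 was not analysed here. The members were 9 Hsp70, Hsp90 and helper chaperones, 2 lectin chaperones, 7 disulphide and prolyl isomerases, 3 stress sensors with the transcription factor Xbp1, 9 genes of ER-associated degradation and 3 genes of the translocon, the channel through which new proteins enter the ER.

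The cells were mouse embryonic fibroblasts, either Gdap1-null (KO) or wild type (WT). The Gdap1 protein sits in the outer membrane of mitochondria. RNA was taken at day 4 of reprogramming or before it (day 0), which gave 4 groups of 3 arrays: KO day 4, KO day 0, WT day 4 and WT day 0. Reprogramming was by transduction with Oct4, Sox2, Klf4 and cMyc, the transcription factors that can turn fibroblasts into pluripotent stem cells, and all cells grew in DMEM with fetal bovine serum. The treatment label, shared by all arrays, also names a mock transduction and does not say whether the day 0 cells had it. Neither how Gdap1 was removed nor whether the arrays of a group came from separate embryos or cultures was given in the labels, so p-values measure only the spread between these samples.

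Folding in the ER lumen is led by the Hsp70 chaperone BiP, the product of Hspa5, which works with J-domain partners and nucleotide exchange factors. When unfolded proteins accumulate, the membrane sensors Atf6, Ern1 (IRE1) and Eif2ak3 (PERK) start the unfolded protein response, in which the cleaved Atf6 protein and the Xbp1 protein made from spliced mRNA raise transcription of chaperone and degradation genes. Fibroblasts load this machinery with collagen and other matrix proteins. Splicing of Xbp1 and cleavage or phosphorylation of the sensors are not read by gene-level probe sets, which give mRNA levels only.

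All 10 fibroblast markers lay above the 25th percentile of gene levels in every group, with a mean log2 level per array between 10.28 and 10.65. The macrophage markers lay apart between the genotypes at both days: the mean over 10 genes was 5.03 to 5.10 on the KO day 4 arrays, 5.03 to 5.15 on the KO day 0 arrays, 5.81 to 6.61 on the WT day 4 arrays and 6.06 to 6.14 on the WT day 0 arrays. Of these 10 genes 7 were lower in KO at either day, with medians of -0.89 at day 4 and -1.0 at day 0, and Ptprc was under the 25th percentile in KO cells. At a single day other marker means also lay apart: keratinocyte markers at day 4 (KO 4.03 to 4.14, WT 4.30 to 4.41), pluripotent cell markers at day 4 (KO 4.23 to 4.33, WT 4.09 to 4.21), endothelial markers at day 0 (KO 4.4 to 4.52, WT 4.58 to 4.70) and fibroblast markers at day 0 (KO 10.59 to 10.65, WT 10.51 on each array). Mean levels per array were 4.13 to 4.70 for endothelial, 3.80 to 4.41 for keratinocyte, 3.53 to 3.82 for plasma cell and B cell, and 4.05 to 4.33 for pluripotent cell markers. WT day 4 array 1 had the lowest mean correlation with its own group (0.9866, against 0.9909 to 0.997 for the other arrays) and the highest macrophage mean (6.61). Gdap1 itself lay near the floor, with log2 levels of 3.21, 2.98 and 3.28 in KO day 4, 3.10, 2.97 and 3.28 in KO day 0, 2.82, 3.02 and 3.15 in WT day 4 and 3.30, 3.24 and 3.04 in WT day 0 arrays, so its probe set does not check the genotype.

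Many ER chaperone genes share a control sequence in their promoters, the ER stress element, which consists of CCAAT and CCACG separated by 9 bases and is bound by the factor NF-Y and the cleaved Atf6 protein. Windows of 250 bases before to 50 bases after the annotated start (RefSeq, build GRCm38.p6) were given for 28 of the 34 measured members. The element, on either strand, was found in 9 of these 28 genes (32.1%) and in 37 of 27025 genes with a window (0.137%). As ER chaperone genes are known to share the ER stress element, its higher share among the members is a description and no independent result. A shorter form, ERSE-II, with ATTGG and CCACG separated by 1 base, was found in 2 of the 28 (7.14%) and in 12 of 27025 genes (0.0444%). No site of either form overlapped another. The Xbp1 and Atf6 site TGACGTGG was in none of the 28 windows (0.714% of all genes) and the Atf4 site TGATGCAAT in none (0.222%), which says only that these letters were not in these windows. The windows of a pair of genes are printed whole from 5′ to 3′ on the strand of the gene, Hspa5 at chr2:34771840-34772139 and Herpud1 at chr8:94386179-94386478, both on the + strand, because Hspa5 passed the test in 3 and Herpud1 in 4 of the 5 comparisons made. Capitals mark both parts of the element.
Hspa5: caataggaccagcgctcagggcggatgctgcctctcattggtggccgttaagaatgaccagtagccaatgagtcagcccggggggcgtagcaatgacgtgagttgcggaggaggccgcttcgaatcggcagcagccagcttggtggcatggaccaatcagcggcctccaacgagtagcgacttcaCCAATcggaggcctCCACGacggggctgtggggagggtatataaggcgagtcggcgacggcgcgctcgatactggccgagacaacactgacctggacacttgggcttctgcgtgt
Herpud1: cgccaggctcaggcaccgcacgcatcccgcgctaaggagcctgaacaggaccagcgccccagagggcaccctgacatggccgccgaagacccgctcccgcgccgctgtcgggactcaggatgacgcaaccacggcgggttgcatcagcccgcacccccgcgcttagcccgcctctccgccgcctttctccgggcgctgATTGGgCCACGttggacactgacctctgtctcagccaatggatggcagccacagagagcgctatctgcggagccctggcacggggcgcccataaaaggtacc

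The other members with an element are shown by the element alone, written 5′ to 3′ on the strand that carries it, since their levels are set against those of members without one further on. Capitals mark the same parts, and the bases between them differed from gene to gene.
Syvn1, chr19:6046532-6046550, + strand: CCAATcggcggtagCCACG
Pdia6, chr12:17266491-17266509, + strand: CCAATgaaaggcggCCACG
Dnajc3, chr14:118937827-118937845, + strand: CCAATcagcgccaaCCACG
Creld2, chr15:88819520-88819538, - strand: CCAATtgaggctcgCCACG
Canx, chr11:50325800-50325818, - strand: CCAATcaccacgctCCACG
Derl3, chr10:75893242-75893260, - strand: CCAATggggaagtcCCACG
Calr, chr8:84847075-84847093, + strand: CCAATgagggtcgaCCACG
Hsp90b1, chr10:86705638-86705656, - strand: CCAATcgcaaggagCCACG
Hsp90b1, chr10:86705533-86705551, + strand: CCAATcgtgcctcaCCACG
Dnajb11, chr16:22857852-22857862, + strand: ATTGGcCCACG

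Relative to the annotated start, the centre of the element lay at -56 in Hspa5, -47 in Herpud1, -35 in Syvn1, -89 in Pdia6 and -96 in Dnajc3. It lay at -117 in Creld2, -136 in Canx, -147 in Derl3 and -153 in Calr, at -203 and -98 in Hsp90b1, and at 12 in Dnajb11. In Creld2, Derl3, Calr and the copy of Hsp90b1 nearer the start the element was on the strand opposite to the gene.

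**Figure D1:**
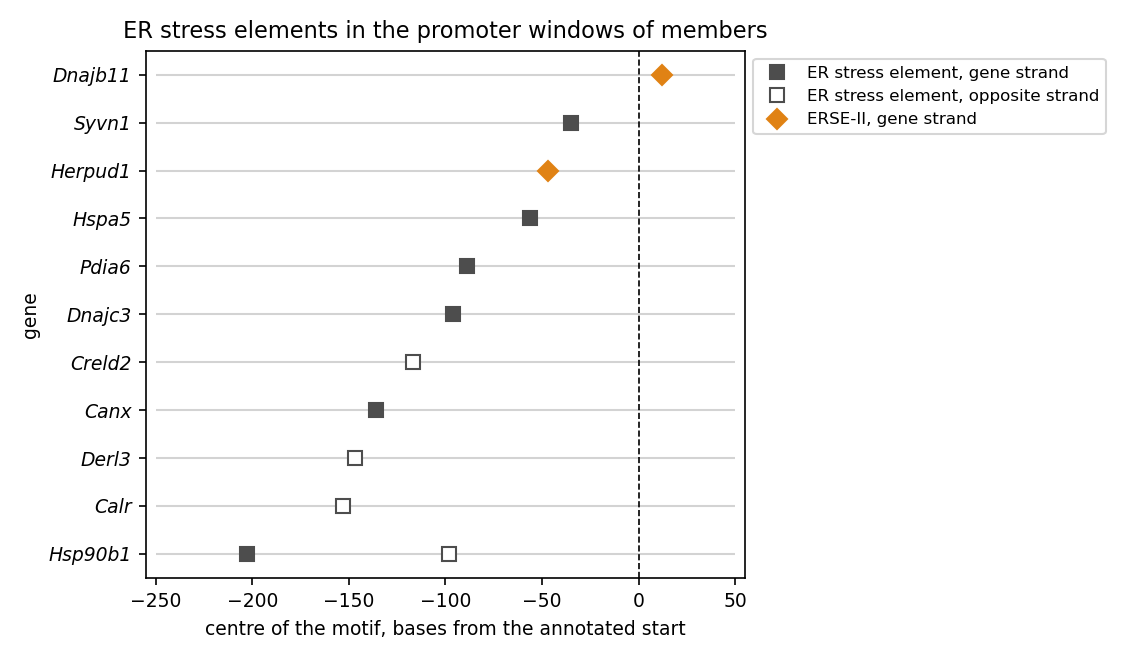
Position of each element in the promoter windows, as the distance in bases of its centre from the annotated start (x axis) for 11 members (y axis). Filled squares are ER stress elements on the strand of the gene, open squares those on the opposite strand and diamonds ERSE-II; every centre except that of Dnajb11, at 12, lay before the start.

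At day 4 of reprogramming many of the ER folding and degradation genes were lower than at day 0, in both genotypes. In KO cells 19 of 34 members fell and 1, Derl3, rose, and in WT cells 16 fell and 1, Edem2, rose. The median change over the members was -0.33 in KO cells and -0.27 in WT cells on the log2 scale, and the median over all genes was -0.01 in each. The changes were modest, between -0.85 and 0.23 in KO cells, and none reached 2-fold. BiP (Hspa5), its helpers Hyou1, Dnajb11, Dnajc3 and Manf, Xbp1 and the degradation genes Herpud1, Derl1 and Derl2 were among those that fell in both genotypes.

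These counts rest on limma's moderated test, with 3 arrays per group and an adjusted p under 0.05 over all 22180 genes. The groups share 1 estimate of the spread of each gene. Where an array outside a comparison is left out below, the adjusted p moves but the change itself stays the same. The members were chosen with earlier results of these data known, so their shares are set beside those of all genes as a description only. Among all genes 16.9% passed as lower and 13.8% as higher at day 4 in KO cells, against 55.9% and 2.94% of the members. In WT cells 11.7% of all genes passed as lower and 11.1% as higher, against 47.1% and 2.94% of the members. Genes with bright probe sets passed as lower more often: above the 75th percentile of level, a split chosen after the counts were seen, 34.6% of all genes were lower in KO cells and 24.1% in WT cells. Of the 28 members above that level 16 (57.1%) were lower in KO cells and 14 in WT cells.

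The fibroblast markers also moved with day 4: 5 of 10 were lower and 1 higher in KO cells (median -0.19), and 5 lower and 2 higher in WT cells (median -0.21). Pdgfrb, a growth factor receptor, fell by 0.90 ± 0.13 in KO cells and by 1.03 ± 0.13 in WT cells. Col1a1, which encodes a chain of the collagen that passes through the ER, fell by 0.55 ± 0.11 in KO cells and by 0.65 ± 0.11 in WT cells. Dcn, which encodes the matrix proteoglycan decorin, rose by 0.99 ± 0.11 in KO cells and by 1.68 ± 0.11 in WT cells. These 3 markers were chosen after their values were seen, and the part of the markers in the members' changes was not tested.

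Both day 4 comparisons used separate arrays, and 14 members were lower in both, which is 73.7% of those lower in KO cells and 87.5% of those lower in WT cells. Over all genes, 1798 genes were lower in both, 47.9% of those lower in KO cells and 69.1% of those lower in WT cells. The 14 were Calr, Creld2, Derl1, Derl2, Dnajb11, Dnajc3, Herpud1, Hsp90b1, Hspa5, Hyou1, Manf, Pdia6, Serp1 and Xbp1. Ern1, P4hb, Sec61a1, Sec61b and Syvn1 passed in KO cells alone and Hspa13 and Sel1l in WT cells alone, but for none of these did the difference between the genotypes' changes pass its own test. RNA of whole cultures cannot tell fewer cells of a type from less RNA per cell.

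**Figure D2:**
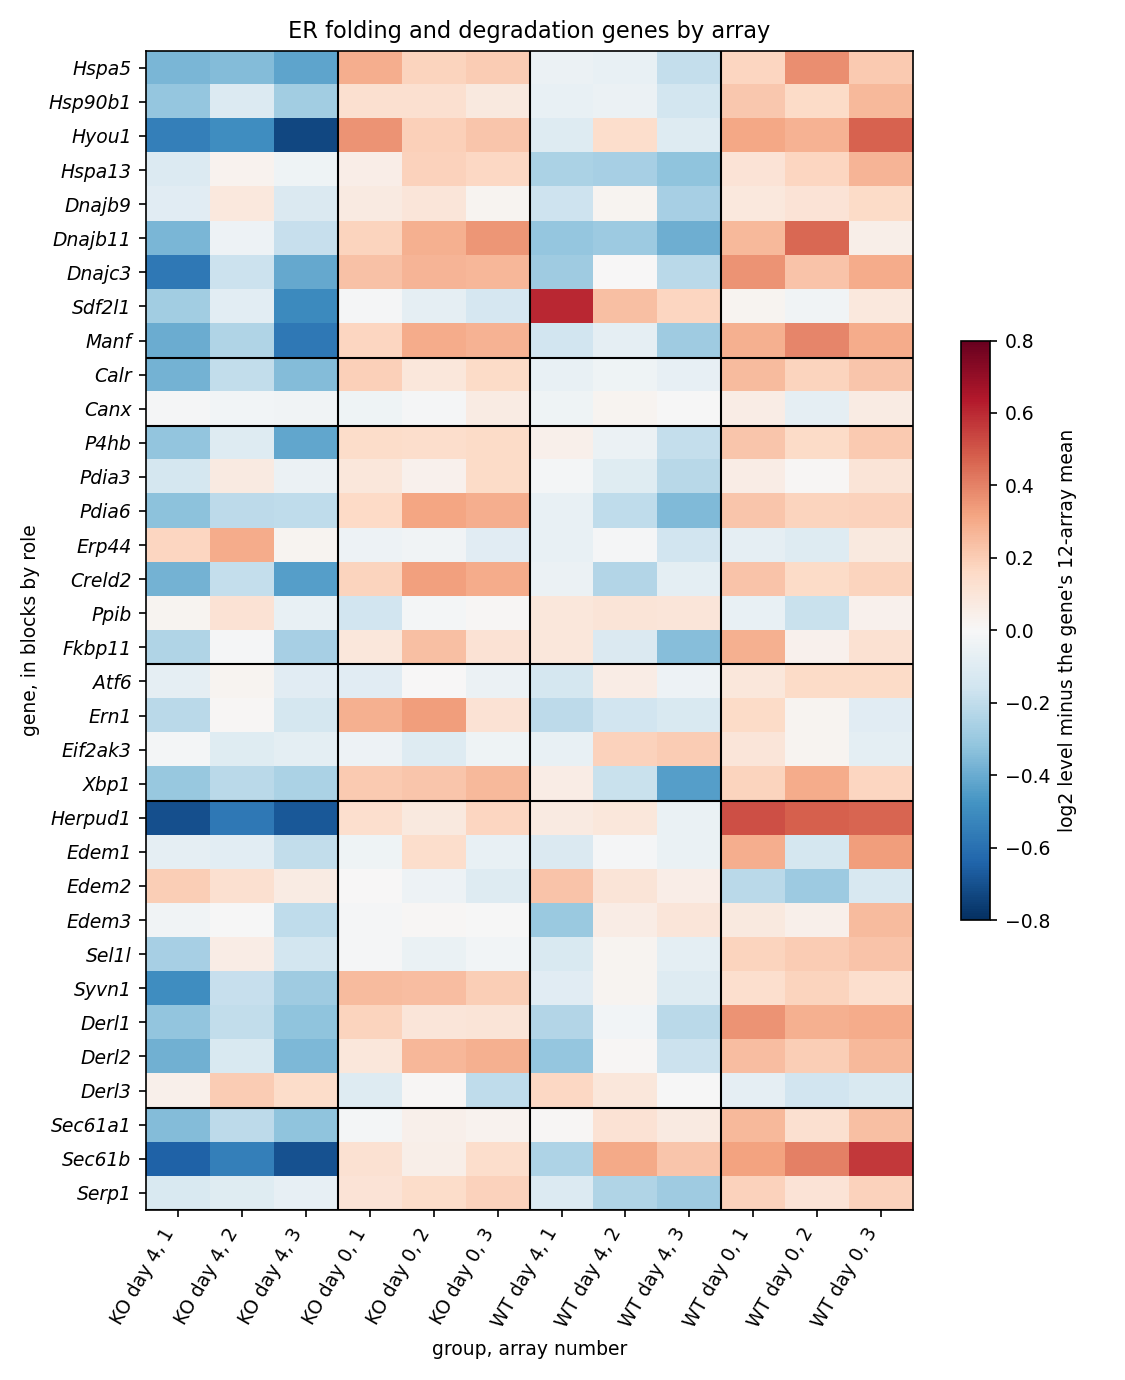
Log2 level of each of the 34 members (rows, in blocks by role) on each of the 12 arrays (columns), minus the mean of that gene over the 12 arrays; blue is below and red above that mean. Most rows are blue in KO day 4 and pale in WT day 4, with Herpud1, Hyou1 and Sec61b the darkest in KO day 4, and the mean over the members was -0.25, -0.10 and -0.26 on the KO day 4 arrays, 0.09 to 0.12 on KO day 0, -0.07, -0.01 and -0.12 on WT day 4 and 0.13 to 0.18 on WT day 0.

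Of the 9 chaperones and co-chaperones 6 fell in KO cells (median -0.47) and 7 in WT cells (median -0.38), and none rose in either. Hspa5 had log2 levels of 8.08, 8.10 and 8.03 on the KO day 4 arrays and 8.73, 8.62 and 8.65 on the KO day 0 arrays. On the WT arrays it had 8.40, 8.39 and 8.25 at day 4 and 8.62, 8.82 and 8.66 at day 0. The lowest day 0 array of each genotype was above the highest day 4 array of the same genotype, and the KO day 4 arrays were the lowest of all. Hspa5 fell by 0.60 ± 0.08 in KO cells (SE of the fit, 1.52-fold, adjusted p = 8.53e-05) and by 0.35 ± 0.08 in WT cells (adjusted p = 0.00537).

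Hyou1 (Grp170), an exchange factor that lets BiP release its substrates, showed the largest fall of the list in KO cells. Its levels were 7.84, 7.89 and 7.66 in KO day 4, 8.75, 8.58 and 8.61 in KO day 0, 8.28, 8.53 and 8.28 in WT day 4 and 8.69, 8.67 and 8.86 in WT day 0 arrays. The KO day 4 arrays stood apart from all others. Hyou1 fell by 0.85 ± 0.10 in KO cells (1.80-fold, adjusted p = 3.24e-05) and by 0.38 ± 0.10 in WT cells (adjusted p = 0.0127). In WT cells Hyou1 no longer passed with WT day 0 array 3 left out (adjusted p = 0.0601), or with WT day 4 array 3 left out (adjusted p = 0.051).

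Sdf2l1, which forms a complex with the J-domain protein of Dnajb11, went another way. It had 7.60, 7.80 and 7.37 in KO day 4, 7.87, 7.81 and 7.75 in KO day 0, 8.48, 8.12 and 8.06 in WT day 4 and 7.90, 7.86 and 7.97 in WT day 0 arrays. The WT day 4 arrays were all above the WT day 0 arrays, while the KO groups overlapped. Neither change passed: it was 0.31 ± 0.12 in WT cells (adjusted p = 0.089), the largest positive value among the chaperones, and -0.22 ± 0.12 in KO cells (adjusted p = 0.205).

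Hspa13, an Hsp70-type ATPase of the ER, had levels of 7.96, 8.10 and 8.03 in KO day 4, 8.12, 8.25 and 8.23 in KO day 0, 7.82, 7.80 and 7.75 in WT day 4 and 8.18, 8.24 and 8.34 in WT day 0 arrays. It was lowest in WT day 4, in contrast to Hspa5 and Hyou1. The change was -0.17 ± 0.08 in KO cells (adjusted p = 0.104), and in WT cells it fell by 0.46 ± 0.08 (adjusted p = 6e-04). Dnajb9, Dnajb11 and Dnajc3 encode J-domain partners of BiP, and 2 of these passed in both genotypes. Dnajc3 fell by 0.64 ± 0.10 in KO cells (adjusted p = 0.000459) and by 0.46 ± 0.10 in WT cells (adjusted p = 0.00599). Dnajb11 had 7.66, 7.98 and 7.84 in KO day 4, 8.2, 8.30 and 8.38 in KO day 0, 7.71, 7.73 and 7.63 in WT day 4 and 8.28, 8.48 and 8.07 in WT day 0 arrays, with the day 4 arrays below the day 0 arrays in both genotypes. It was 1.38-fold lower in KO cells (adjusted p = 0.00575) and 1.5-fold lower in WT cells (adjusted p = 0.00176), the largest fall of any member in WT cells. Dnajb9 changed by -0.11 ± 0.09 in KO cells (adjusted p = 0.407) and -0.25 ± 0.09 in WT cells (adjusted p = 0.0574), where it passed with KO day 4 array 2 omitted (adjusted p = 0.0454) or with WT day 4 array 2 omitted (adjusted p = 0.0164).

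Manf, a small ER protein that binds BiP, fell by 0.65 ± 0.09 in KO cells (adjusted p = 0.00016) and by 0.50 ± 0.09 in WT cells (adjusted p = 0.00164). Hsp90b1 (Grp94), the Hsp90 of the ER, fell by 0.35 ± 0.07 in KO cells (adjusted p = 0.00343) and by 0.29 ± 0.07 in WT cells (adjusted p = 0.0121), and the WT call was lost under quantile normalization (adjusted p = 0.114). Sdf2l1 and Dnajb9 were the chaperone genes that passed in neither genotype.

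**Figure D3:**
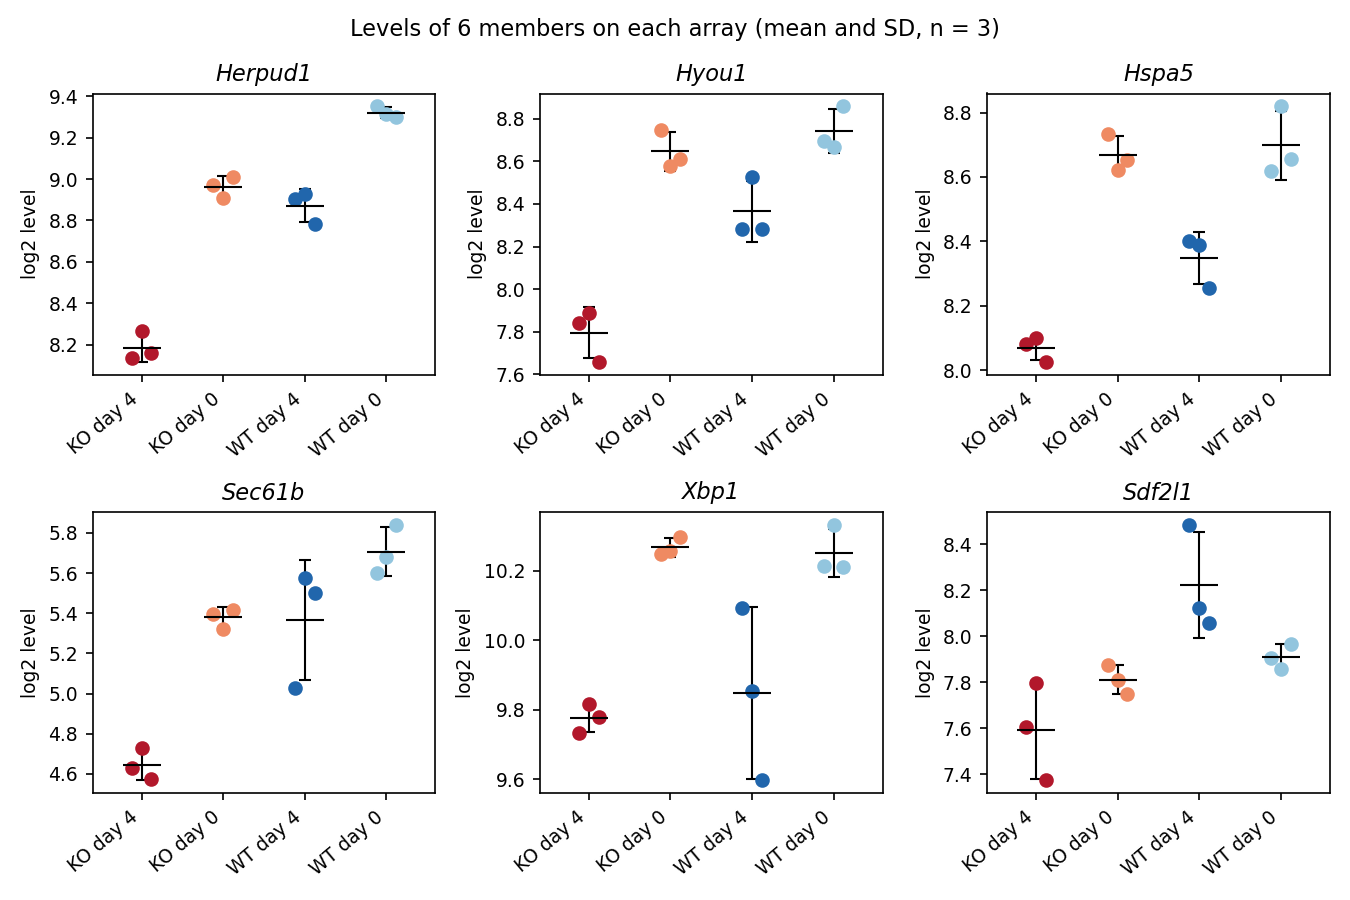
Log2 level of 6 members on each array (points), with the mean and SD of each group (n = 3); the y axis of each panel covers only the range of that gene. Herpud1, Hyou1, Hspa5 and Sec61b have all KO day 4 arrays below all arrays of the other groups, Sec61b and Xbp1 are spread widely in WT day 4, and Sdf2l1 is highest in WT day 4.

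The 2 lectin chaperones hold glycoproteins during folding, and they differed. Calr (calreticulin), soluble in the lumen, had 10.98, 11.16 and 11.01 in KO day 4, 11.55, 11.45 and 11.51 in KO day 0, 11.30, 11.32 and 11.29 in WT day 4 and 11.61, 11.54 and 11.58 in WT day 0 arrays. Again the KO day 4 arrays were the lowest and the day 4 and day 0 arrays of a genotype did not overlap. Calr fell by 0.45 ± 0.07 in KO cells (1.37-fold, adjusted p = 0.000375) and by 0.27 ± 0.07 in WT cells (adjusted p = 0.0148), which did not pass in WT cells once WT day 0 array 1 was omitted (adjusted p = 0.059). Canx (calnexin), its membrane-bound counterpart, changed by -0.03 ± 0.07 in KO cells (adjusted p = 0.806) and -0.02 ± 0.07 in WT cells (adjusted p = 0.888), although its window holds an ER stress element.

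Of the 7 isomerases 3 fell in KO cells (median -0.32) and 2 in WT cells (median -0.26). Creld2, an ER protein with isomerase activity, had 8.42, 8.60 and 8.35 in KO day 4, 8.97, 9.12 and 9.09 in KO day 0, 8.74, 8.56 and 8.71 in WT day 4 and 9.02, 8.95 and 8.97 in WT day 0 arrays. Day 4 arrays were below day 0 arrays in both genotypes, and those of KO day 4 and WT day 4 overlapped. Creld2 fell by 0.60 ± 0.09 in KO cells (adjusted p = 0.000165) and by 0.31 ± 0.09 in WT cells (adjusted p = 0.0196), but it did not pass in WT cells with WT day 0 array 1 omitted (adjusted p = 0.0723) or with WT day 4 array 2 omitted (adjusted p = 0.0777).

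Erp44, which retains Ero1 oxidases and unassembled subunits in the early secretory pathway, had 8.26, 8.39 and 8.11 in KO day 4, 8.05, 8.07 and 8.0 in KO day 0, 8.03, 8.08 and 7.94 in WT day 4 and 8.02, 7.99 and 8.17 in WT day 0 arrays. Its KO day 4 arrays were above the KO day 0 and WT day 4 arrays and overlapped with WT day 0. Its change of 0.22 ± 0.09 in KO cells did not pass (adjusted p = 0.0773; 0.032 without KO day 4 array 3 and 0.0228 under quantile normalization), and in WT cells it was -0.04 ± 0.09 (adjusted p = 0.808). Among the classical disulphide isomerases Pdia6 had 8.79, 8.92 and 8.92 in KO day 4, 9.29, 9.44 and 9.41 in KO day 0, 9.07, 8.92 and 8.77 in WT day 4 and 9.35, 9.31 and 9.31 in WT day 0 arrays. Its day 4 arrays were below its day 0 arrays in both genotypes, and Pdia6 fell by 0.50 ± 0.09 in KO cells (adjusted p = 0.000615) and by 0.40 ± 0.09 in WT cells (adjusted p = 0.00423). P4hb, which is also a subunit of the collagen prolyl 4-hydroxylase, fell by 0.42 ± 0.09 in KO cells (adjusted p = 0.00284). In WT cells P4hb changed by -0.26 ± 0.09 (adjusted p = 0.0543), and passed without WT day 4 array 1 (adjusted p = 0.0315), KO day 4 array 2 (adjusted p = 0.0273) or KO day 4 array 3 (adjusted p = 0.0426). Pdia3, the partner of calnexin and calreticulin, changed by -0.13 ± 0.08 in KO cells (adjusted p = 0.263) and -0.17 ± 0.08 in WT cells (adjusted p = 0.176).

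Neither prolyl isomerase passed in the fit as reported. Ppib (cyclophilin B) had 11.37, 11.47 and 11.29 in KO day 4, 11.2, 11.33 and 11.36 in KO day 0, 11.44, 11.45 and 11.44 in WT day 4 and 11.29, 11.17 and 11.38 in WT day 0 arrays. The KO groups overlapped, and the WT day 4 arrays were above the WT day 0 arrays. Ppib changed by 0.08 ± 0.08 in KO cells (adjusted p = 0.511) and 0.17 ± 0.08 in WT cells (adjusted p = 0.181, and 0.0452 as higher under quantile normalization). Fkbp11 changed by -0.32 ± 0.12 in KO cells (adjusted p = 0.0523) and -0.27 ± 0.12 in WT cells (adjusted p = 0.12). Fkbp11 passed in KO cells without WT day 4 array 1 (adjusted p = 0.0245), KO day 4 array 2 (adjusted p = 0.0273) or WT day 4 array 3 (adjusted p = 0.0302), and in WT cells without WT day 4 array 1 (adjusted p = 0.0258). Omitting a WT array left the KO change at -0.32. It also passed in KO cells with low levels filtered (0.042), the trended and robust prior (0.0478), array weights (0.0232) and a fit to the KO groups alone (0.0326). With array weights it passed in WT cells too (0.0276).

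Of the 3 sensors only Ern1 passed at day 4, and only in KO cells. Ern1, the kinase and endoribonuclease that splices Xbp1, had 7.42, 7.65 and 7.5 in KO day 4, 7.92, 7.97 and 7.75 in KO day 0, 7.43, 7.48 and 7.51 in WT day 4 and 7.79, 7.66 and 7.54 in WT day 0 arrays. The KO day 0 arrays were the highest group, though they overlapped with WT day 0. Ern1 fell by 0.36 ± 0.09 in KO cells (adjusted p = 0.00913), and its change in WT cells was -0.19 ± 0.09 (adjusted p = 0.178).

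Atf6 had 7.72, 7.82 and 7.70 in KO day 4, 7.71, 7.80 and 7.75 in KO day 0, 7.66, 7.86 and 7.75 in WT day 4 and 7.89, 7.95 and 7.95 in WT day 0 arrays. The WT day 0 arrays were above all others by a narrow margin, but no change of Atf6 passed (adjusted p = 0.983 in KO cells and 0.126 in WT cells). Eif2ak3, the kinase that phosphorylates the translation factor eIF2α, had 7.13, 7.05 and 7.07 in KO day 4, 7.11, 7.04 and 7.11 in KO day 0, 7.09, 7.33 and 7.35 in WT day 4 and 7.25, 7.17 and 7.07 in WT day 0 arrays. Its groups overlapped in time, and neither change passed (adjusted p = 0.983 in KO cells and 0.497 in WT cells).

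Xbp1, the transcription factor, fell in both genotypes. It had 9.73, 9.82 and 9.78 in KO day 4, 10.25, 10.26 and 10.30 in KO day 0, 10.09, 9.85 and 9.60 in WT day 4 and 10.21, 10.33 and 10.21 in WT day 0 arrays. The 3 WT day 4 arrays were spread widely (SD 0.25, against 0.04 in KO day 4), yet all lay below the day 0 arrays. Xbp1 fell by 0.49 ± 0.10 in KO cells (adjusted p = 0.00312) and by 0.40 ± 0.10 in WT cells (adjusted p = 0.0135), and in WT cells it did not pass once WT day 0 array 2 was omitted (adjusted p = 0.0586).

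Among the 9 degradation genes 4 fell and 1 rose in each genotype, but not the same ones throughout. Herpud1, a membrane protein that takes part in the Syvn1 ligase complex and is known to be induced by ER stress, passed in more comparisons than any other member. It had 8.13, 8.26 and 8.16 in KO day 4, 8.97, 8.91 and 9.01 in KO day 0, 8.91, 8.93 and 8.78 in WT day 4 and 9.35, 9.31 and 9.30 in WT day 0 arrays. The KO day 4 arrays were lowest, the WT day 0 arrays highest, and KO day 0 and WT day 4 overlapped between them. Herpud1 fell by 0.78 ± 0.07 in KO cells (1.72-fold, adjusted p = 7.19e-06) and by 0.45 ± 0.07 in WT cells (1.37-fold, adjusted p = 0.000555).

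Syvn1 (Hrd1), the ubiquitin ligase of the pathway, had 7.62, 7.93 and 7.83 in KO day 4, 8.37, 8.36 and 8.31 in KO day 0, 8.02, 8.14 and 8.01 in WT day 4 and 8.25, 8.29 and 8.25 in WT day 0 arrays. Day 4 arrays lay below day 0 arrays in both genotypes, further in KO cells. Syvn1 fell by 0.55 ± 0.08 in KO cells (adjusted p = 0.00027), and in WT cells the change of -0.21 ± 0.08 did not pass (adjusted p = 0.104). Sel1l, the partner of Syvn1, changed by -0.09 ± 0.09 in KO cells (adjusted p = 0.481) and fell by 0.26 ± 0.09 in WT cells (adjusted p = 0.0408), a call that was lost in 9 of 12 omissions of an array (adjusted p of 0.0508 to 0.108). It was kept without WT day 4 array 2, KO day 4 array 1 or KO day 4 array 2.

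The derlins, membrane proteins of the exit route for misfolded chains, split. Derl1 had 10.13, 10.25 and 10.12 in KO day 4, 10.62, 10.54 and 10.54 in KO day 0, 10.21, 10.42 and 10.23 in WT day 4 and 10.8, 10.73 and 10.74 in WT day 0 arrays, with day 4 below day 0 in both genotypes. Derl1 fell by 0.40 ± 0.08 in KO cells (adjusted p = 0.00158) and by 0.47 ± 0.08 in WT cells (adjusted p = 0.000725), and Derl2 fell by 0.50 ± 0.10 in KO cells (adjusted p = 0.00189) and by 0.39 ± 0.10 in WT cells (adjusted p = 0.0117). Derl3, whose probe set lay at the 35.5 percentile of gene levels, had 4.37, 4.54 and 4.48 in KO day 4, 4.23, 4.35 and 4.13 in KO day 0, 4.5, 4.43 and 4.33 in WT day 4 and 4.27, 4.19 and 4.21 in WT day 0 arrays. Day 4 arrays were above day 0 arrays in both genotypes, in KO cells by a narrow margin. Derl3 rose by 0.23 ± 0.08 in KO cells (adjusted p = 0.0498) and changed by 0.20 ± 0.08 in WT cells (adjusted p = 0.105). The KO call was lost in 8 of 12 omissions (adjusted p up to 0.187) and kept without WT day 4 array 1, WT day 4 array 3, KO day 0 array 2 or KO day 4 array 1.

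The Edem proteins mark glycoproteins for degradation by trimming mannose. Edem2 had 8.17, 8.11 and 8.04 in KO day 4, 7.98, 7.93 and 7.87 in KO day 0, 8.20, 8.08 and 8.03 in WT day 4 and 7.76, 7.68 and 7.85 in WT day 0 arrays, so that day 4 arrays were above day 0 arrays in both genotypes. It rose by 0.34 ± 0.08 in WT cells (adjusted p = 0.00613), and its change in KO cells was 0.18 ± 0.08 (adjusted p = 0.103, and 0.0353 under quantile normalization). Edem1 changed by -0.13 ± 0.11 in KO cells (adjusted p = 0.421) and -0.22 ± 0.11 in WT cells (adjusted p = 0.21, and 0.0129 without WT day 0 array 2). Edem3 changed by -0.08 ± 0.11 in KO cells (adjusted p = 0.636) and -0.17 ± 0.11 in WT cells (adjusted p = 0.31).

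All 3 translocon genes fell in KO cells and 1, Serp1, in WT cells. Sec61b, a small subunit of the Sec61 channel, had 4.63, 4.73 and 4.58 in KO day 4, 5.40, 5.32 and 5.42 in KO day 0, 5.03, 5.58 and 5.5 in WT day 4 and 5.60, 5.68 and 5.84 in WT day 0 arrays. Its KO day 4 arrays were below all others, and WT day 4 array 1 stood below the other WT day 4 arrays. Sec61b fell by 0.73 ± 0.13 in KO cells (1.66-fold, adjusted p = 0.000637), and changed by -0.34 ± 0.13 in WT cells (adjusted p = 0.0722, and 0.0267 without WT day 4 array 2).

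Sec61a1, the pore-forming subunit, had 10.93, 11.06 and 10.95 in KO day 4, 11.26, 11.32 and 11.30 in KO day 0, 11.28, 11.39 and 11.34 in WT day 4 and 11.53, 11.40 and 11.51 in WT day 0 arrays. The KO day 4 arrays were the lowest and the WT day 0 arrays the highest, and KO day 0 and WT day 4 overlapped between them. It fell by 0.31 ± 0.07 in KO cells (adjusted p = 0.00514) and changed by -0.14 ± 0.07 in WT cells (adjusted p = 0.194). Serp1 (Ramp4), a protein that associates with the channel, had 9.87, 9.90 and 9.93 in KO day 4, 10.1, 10.14 and 10.18 in KO day 0, 9.88, 9.75 and 9.71 in WT day 4 and 10.17, 10.1 and 10.18 in WT day 0 arrays. Day 4 arrays were below day 0 arrays in both genotypes. Serp1 fell by 0.24 ± 0.07 in KO cells (adjusted p = 0.02) and by 0.37 ± 0.07 in WT cells (adjusted p = 0.00191). The KO change of Serp1 did not pass without KO day 0 array 2 (adjusted p = 0.0538), KO day 0 array 3 (adjusted p = 0.0731) or KO day 4 array 1 (adjusted p = 0.0584).

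**Figure D4:**
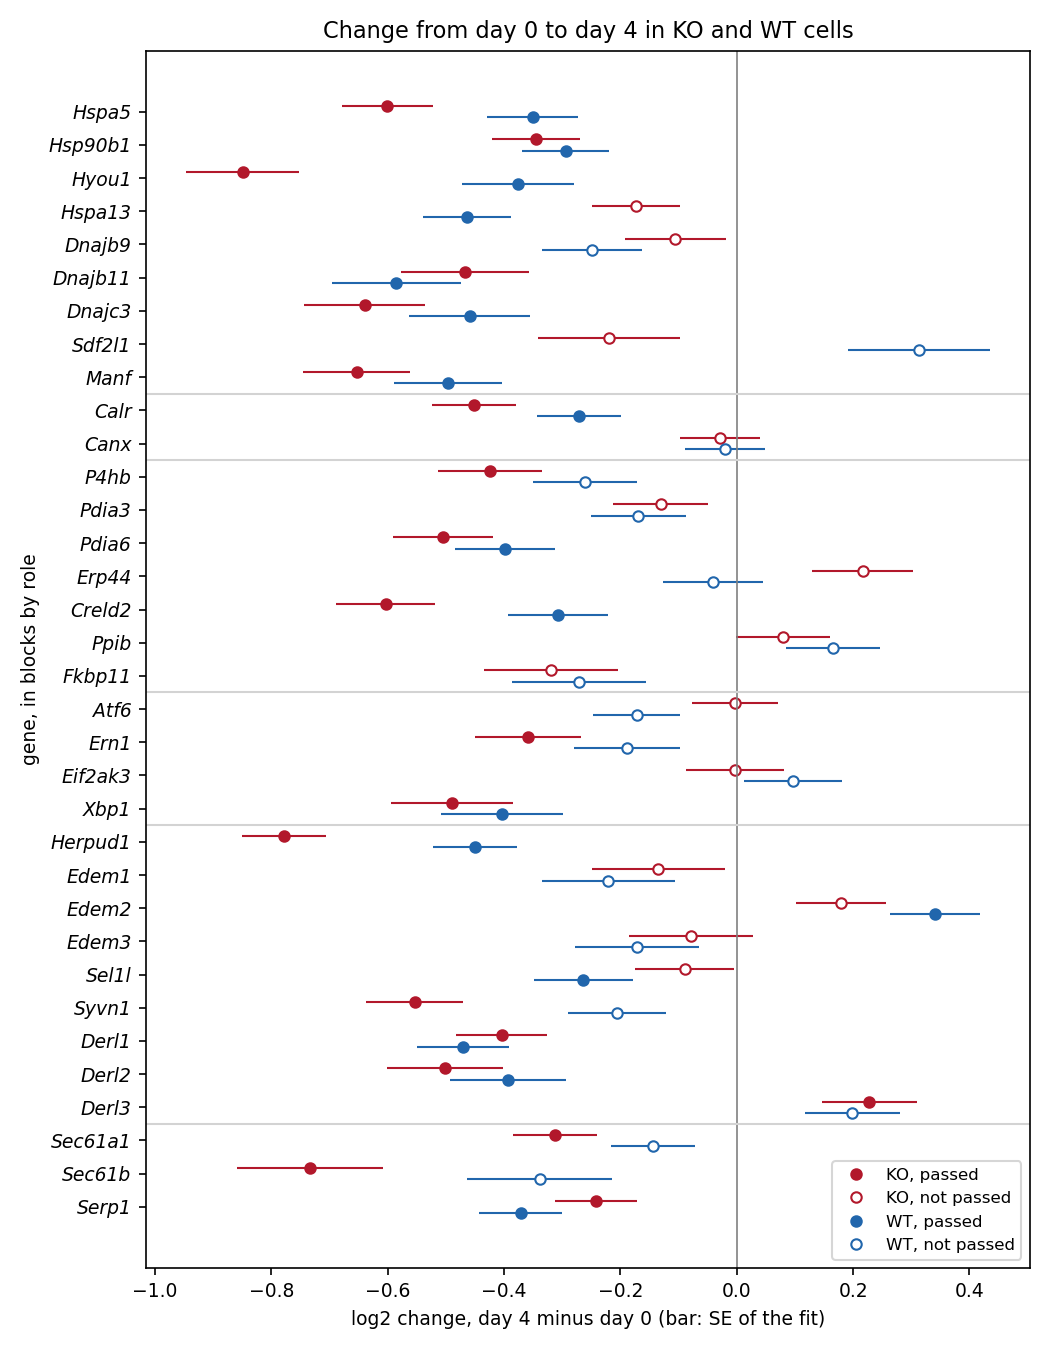
Log2 change at day 4 relative to day 0 (x axis, bars are the SE of the fit, 3 arrays per group) for each member (y axis, in blocks by role), in KO cells (red) and WT cells (blue); filled points passed an adjusted p under 0.05. Nearly all filled points lie left of 0, the exceptions being Derl3 in KO cells and Edem2 in WT cells, and Hyou1, Herpud1 and Sec61b reach furthest left in KO cells.

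At day 4 the KO cells had lower levels than the WT cells of 8 of the 34 members and a higher level of 1. The 8 were Herpud1, Hyou1, Sdf2l1, Sec61b, Sec61a1, Hspa5, Calr and Syvn1, and the one higher was Hspa13. The largest differences were those of Sec61b, at -0.72 ± 0.13 (1.65-fold, adjusted p = 0.00177), and Herpud1, at -0.69 ± 0.07 (1.61-fold, adjusted p = 9.93e-05). They were followed by Sdf2l1, at -0.63 ± 0.12 (adjusted p = 0.00335), Hyou1, at -0.57 ± 0.10 (adjusted p = 0.0016), and Sec61a1, at -0.36 ± 0.07 (adjusted p = 0.00426). For each of these 5 genes every KO day 4 array was below every WT day 4 array, and the call was kept in each of the 12 omissions of 1 array. The arrays did not overlap for Hspa5, Calr, Syvn1 and Hspa13 either, nor for Erp44, which did not pass. Lack of overlap thus does not set the 5 apart, and its share over all genes was not counted. Sec61b was the only one of them with a further probe set, and with its probe sets averaged the difference was -0.28 (adjusted p = 0.0539).

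Of the 34 members 23.5% were lower and 2.94% higher, against 12.4% lower and 8.34% higher among all genes, and the members' median was -0.07. Above the 75th percentile of level 7 of 28 members were lower in KO, against 24.0% of all genes, so among bright probe sets the share of the members was near that of other genes. The comparison shares its KO day 4 arrays with the KO day 4 against day 0 comparison, in which Herpud1, Hyou1, Sec61b, Sec61a1, Hspa5, Calr and Syvn1 also fell. Markers of cell types moved with the same comparison: 7 of 10 macrophage markers were lower in KO, 3 of 10 fibroblast markers lower and 2 higher, and 2 of 4 keratinocyte markers lower. Their part in these differences was not tested.

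The other 4 calls of this comparison were smaller, and each was lost when certain single arrays were left out. In a limma fit to the day 4 arrays alone, Hspa5 (adjusted p = 0.0903), Calr (0.121), Syvn1 (0.165) and Hspa13 (0.125) did not pass. Hspa5 was lower in KO, at -0.28 ± 0.08 (adjusted p = 0.0237), and did not pass when KO day 4 array 1 (adjusted p = 0.0522), KO day 4 array 3 (adjusted p = 0.0714) or WT day 4 array 2 (adjusted p = 0.0767) was omitted. Calr, at -0.25 ± 0.07 (adjusted p = 0.0248), did not pass without KO day 4 array 1 (adjusted p = 0.0839), KO day 4 array 3 (adjusted p = 0.0738), WT day 4 array 2 (adjusted p = 0.0714) or WT day 4 array 3 (adjusted p = 0.0604). Syvn1, at -0.26 ± 0.08 (adjusted p = 0.0425), lost it in 10 of 12 omissions (adjusted p up to 0.154), all except those of KO day 4 array 2 and WT day 4 array 1. Hspa13, higher in KO by 0.24 ± 0.08 (adjusted p = 0.0385), lost it in 7 of 12 (adjusted p up to 0.116) and kept it without KO day 4 array 1, KO day 0 array 1, WT day 4 array 1, WT day 0 array 1 or WT day 0 array 3.

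Among the 25 members that did not pass at day 4, KO minus WT ran from -0.23 for Manf (adjusted p = 0.0967) to 0.24 for Erp44 (adjusted p = 0.0714). Without KO day 4 array 2, Dnajc3 (adjusted p = 0.0421), Manf (adjusted p = 0.0365), P4hb (adjusted p = 0.0313) and Creld2 (adjusted p = 0.0392) passed as lower in KO. In that fit 35.3% of the members passed in either direction against 18.1% of all genes. Without WT day 4 array 2 the shares were 14.7% of the members and 15% of all genes, so the members' higher share depended on the arrays used. Eif2ak3 passed as lower without WT day 4 array 1 (adjusted p = 0.028), and Erp44 as higher without KO day 4 array 3 (adjusted p = 0.0354) and under quantile normalization (adjusted p = 0.0307).

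Before reprogramming the genotypes differed in 1 member. Herpud1 was lower in KO day 0 than in WT day 0, at -0.36 ± 0.07 (1.28-fold, adjusted p = 0.0101), with every KO array below every WT array, but it did not pass once KO day 0 array 2 was omitted (adjusted p = 0.055) or once WT day 0 array 1 was omitted (adjusted p = 0.0506). That is 2.94% of the members as lower and none as higher, against 3.12% lower and 2.48% higher among all genes, and at an unadjusted p under 0.05 there were 6 lower and 1 higher, 20.6% of the members against 16.7% of all genes. Sec61b (-0.33 ± 0.13, adjusted p = 0.189) and Sel1l (-0.23 ± 0.09, adjusted p = 0.167) had the next lowest values, and Ern1 (0.22 ± 0.09, adjusted p = 0.247) the highest. Sec61b passed without WT day 4 array 1 (adjusted p = 0.023), an array outside this comparison. That omission left 5.88% of the members and 8.73% of all genes past the threshold. In a limma fit to the day 0 arrays alone Sec61b (adjusted p = 0.0292) and Sel1l (0.0409) passed as lower, with 8.82% of the members and 11.1% of all genes past it. With array weights Sec61b (0.0334), Sel1l (0.0398) and Sec61a1 (0.0461) passed as lower, with 11.8% of the members and 11.6% of all genes past it. At this day too 7 of 10 macrophage markers were lower in KO.

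Whether the day 4 change itself differed between the genotypes was tested as KO minus WT, and 0 of 34 members passed, against 1.81% lower and 2.15% higher among all genes. At an unadjusted p under 0.05 limma gave 7 members lower and 1 higher, 23.5% of the members against 19.1% of all genes, and the median over the members was -0.09. The most negative differences were those of Sdf2l1, at -0.53 ± 0.17 (adjusted p = 0.108), and Hyou1, at -0.47 ± 0.14 (adjusted p = 0.074). Herpud1 had -0.33 ± 0.10 (adjusted p = 0.0941) and Sec61b -0.39 ± 0.18 (adjusted p = 0.246). A trended and robust prior passed Hyou1 (adjusted p = 0.0377) and Herpud1 (adjusted p = 0.0444), 5.88% of the members against 5.8% of all genes. WT day 4 array 1, the array with the lowest correlation to its group, bore on this result: without it Hyou1 (-0.51, adjusted p = 0.0415) and Sec61b (-0.57, adjusted p = 0.0129) passed, 5.88% of the members against 9.65% of all genes. Without it and KO day 4 array 2 together, Hyou1 (adjusted p = 0.0321), Sdf2l1 (adjusted p = 0.0251), Sec61b (adjusted p = 0.00969) and Syvn1 (adjusted p = 0.0381) passed, 11.8% of the members against 11.4% of all genes. Under each of these settings the share of the members was near or below that of all genes.

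Over all 5 comparisons Herpud1 passed in 4, and Calr, Hspa5 and Hyou1 in 3. There were 10 members that passed in none: Atf6, Canx, Dnajb9, Edem1, Edem3, Eif2ak3, Erp44, Fkbp11, Pdia3 and Ppib. They include the sensors Atf6 and Eif2ak3, and Pdia3 and Canx, which work together on glycoproteins.

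The 11 members with an ER stress element or ERSE-II were set beside the 17 whose window held neither, as a description without a test. In KO cells 9 of the 11 fell at day 4 and 1, Derl3, rose, with a median of -0.50, and of the 17 without an element 6 fell, with a median of -0.13. In WT cells 8 of the 11 fell, with a median of -0.31, against 4 of the 17 that fell and 1 that rose, with a median of -0.22. Between the genotypes at day 4, 4 of the 11 and 2 of the 17 were lower in KO, with medians of -0.22 and -0.06. The 4 were Herpud1, Hspa5, Calr and Syvn1, and the 2 were Sdf2l1 and Sec61b. In the limma fit to the day 4 arrays alone Hspa5 (adjusted p = 0.0903), Calr (0.121) and Syvn1 (0.165) did not pass. Herpud1, Sdf2l1 and Sec61b kept their calls in it, so the higher count among the 11 was not kept in that fit. Among all genes 16.9% were lower at day 4 in KO cells, 11.7% in WT cells and 12.4% in KO against WT at day 4. Above the 75th percentile of level these shares were 34.6%, 24.1% and 24.0%. All of the 11 except Derl3 lay above that level, and all of the 17 except Derl2, Eif2ak3, Fkbp11 and Sec61b. Exceptions ran both ways: Canx holds the element and did not pass in any comparison, while Xbp1, Derl2, Serp1 and Sec61b fell in KO cells with neither sequence in the window. Of the 6 members with no window in the promoter table, Hyou1, Manf, Derl1 and Sec61a1 fell in KO cells.

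Other genes of the secretory pathway, from lists with no member in common with the 34, were counted the same way. These lists too were chosen with earlier results of these data known. The list of the Atf4 arm of the unfolded protein response, which lies downstream of Eif2ak3, had 8 of 12 genes lower in KO cells and 8 in WT cells, with medians of -0.57 and -0.61 and none higher. Chac1, an enzyme that degrades glutathione, fell by 1.83 ± 0.13 in KO cells (adjusted p = 1.08e-06) and it fell by 2.19 ± 0.13 in WT cells (adjusted p = 3.4e-07). The transcription factor Atf5 fell by 1.43 ± 0.11 in KO cells and by 1.20 ± 0.11 in WT cells. In the list of other factors and proteases of the response 5 of 9 were lower in KO cells, and 4 were lower and 1 higher in WT cells. There Creb3l1, a membrane-bound factor of matrix-secreting cells, fell by 1.85 ± 0.19 in KO cells and by 1.37 ± 0.19 in WT cells.

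Vesicle export and retrieval, the step after folding, had 12 of 22 genes lower and 1 higher in KO cells and 12 lower in WT cells, with medians of -0.34 and -0.32. Sec23a, of the COPII coat, fell by 0.77 ± 0.09 in KO cells and by 0.65 ± 0.09 in WT cells. Kdelr3, a receptor that returns escaped ER proteins, fell by 0.59 ± 0.11 in KO cells and by 0.86 ± 0.11 in WT cells. In KO cells 8 of 14 collagen folding genes were lower and 1 higher (median -0.34), and in WT cells 4 were lower and 1 higher (median -0.29). The collagen chaperone Serpinh1 fell by 0.54 ± 0.08 in KO cells and it fell by 0.34 ± 0.08 in WT cells. P3h2, a collagen prolyl 3-hydroxylase, fell by 0.36 ± 0.11 in KO cells (adjusted p = 0.0268) and rose by 0.85 ± 0.11 in WT cells (adjusted p = 0.000131).

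Of 15 genes of the oligosaccharyltransferase and glycan trimming, 8 were lower in KO cells (median -0.27) and 5 in WT cells (median -0.14), with none higher. Magt1 and Rpn2, subunits of the transferase, fell by 0.78 ± 0.08 and by 0.58 ± 0.07 in KO cells and by 0.29 ± 0.08 and by 0.33 ± 0.07 in WT cells. Further translocation and signal peptidase genes were lower in 8 of 17 cases in KO cells (median -0.23) and 6 in WT cells (median -0.17), and Srprb, a subunit of the signal recognition particle receptor, fell by 0.62 ± 0.09 in KO cells and by 0.51 ± 0.09 in WT cells. In the second list of degradation genes 9 of 21 were lower and 2 higher in KO cells (median -0.25) and 5 lower in WT cells (median -0.13), and Selenos, a membrane partner of the derlins, fell by 1.01 ± 0.12 in KO cells and by 0.54 ± 0.12 in WT cells.

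The other ER oxidoreductases were split, with 7 of 14 lower and 4 higher in KO cells and 5 lower and 1 higher in WT cells. Ero1b, an oxidase that recharges disulphide isomerases, rose by 0.99 ± 0.13 in KO cells (adjusted p = 9.08e-05) and by 0.71 ± 0.13 in WT cells (adjusted p = 0.00147). Pdia5 fell by 0.51 ± 0.09 in KO cells and by 0.68 ± 0.09 in WT cells. Chaperones of the cytosol and mitochondria had 5 of 18 genes lower and 2 higher in each genotype, with medians of -0.11 in KO cells and 0.04 in WT cells. Among them Hspa1b, an inducible Hsp70 of the cytosol, changed by -0.12 ± 0.12 in KO cells (adjusted p = 0.499) and fell by 1.19 ± 0.12 in WT cells (adjusted p = 1.33e-05).

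**Figure D5:**
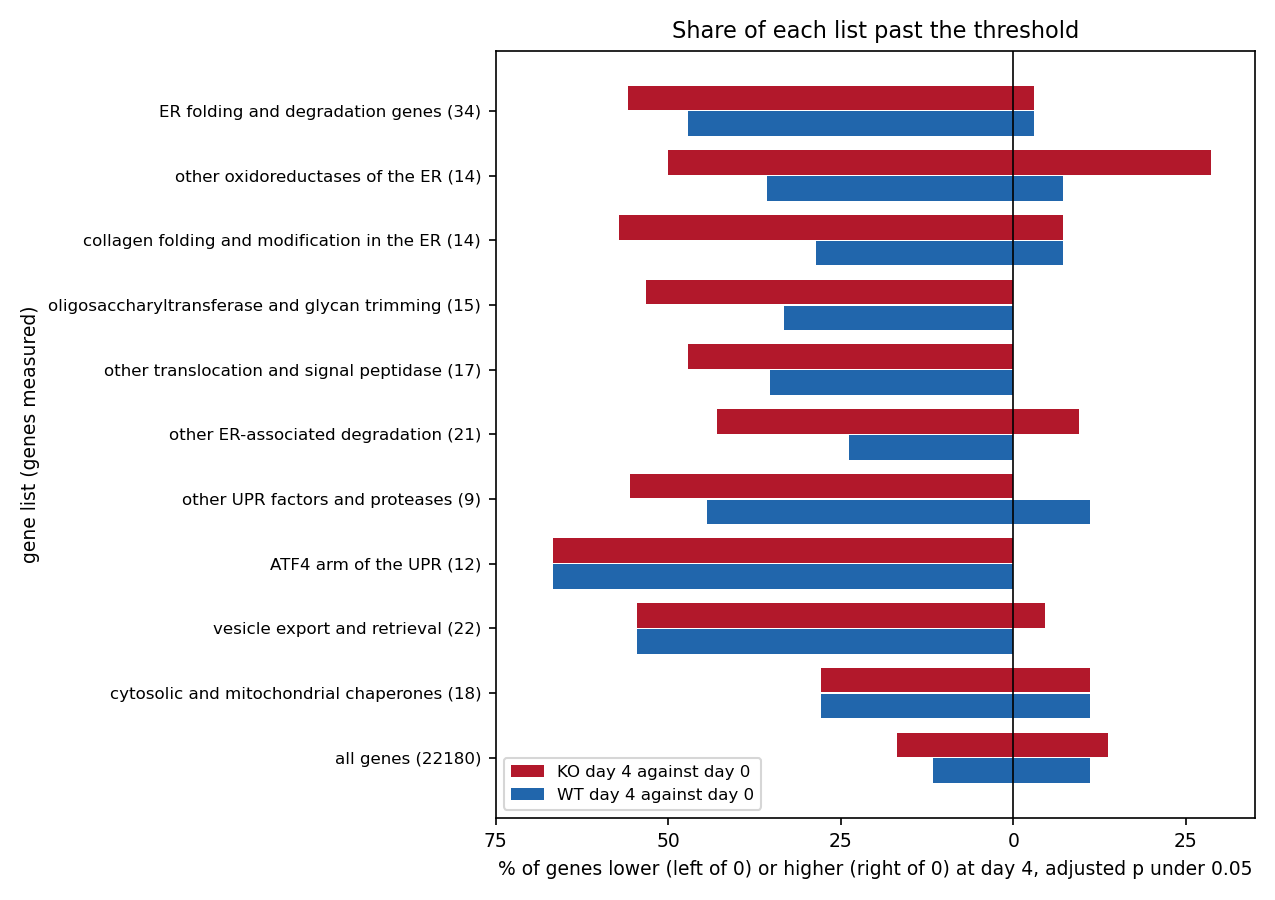
Share of the genes of each list (y axis, number of genes measured in brackets) that passed as lower (bars left of 0) or higher (bars right of 0) at day 4 relative to day 0, in percent, for KO cells (red) and WT cells (blue). The ER folding and degradation genes reach 55.9% lower in KO cells and 47.1% in WT cells, against 16.9% and 11.7% of all genes at the bottom of the plot.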

How the data were processed

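Total RNA, extracted with Trizol and labelled with biotin per the labels' protocols, was hybridised to 1-colour Affymetrix arrays. The authors deposited log2 levels of 41345 probe sets for 12 arrays, between 1.33 and 13.35. Affymetrix Expression Console is named, with no version, per the submitters' processing notes, with background correction and normalization not given in the sources used here. Array medians were 5.22 to 5.32, so no further normalization was applied. Precision is limited by there being 3 arrays per group. The labels name no batch, so that a batch and a group cannot be told apart here. The table held 0 columns of other samples.

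Of the probe sets 23521 had 1 gene symbol, 1814 several and 16010 none, and each gene was taken from its probe set with the highest 12-array mean. The 34 members matched 37 probe sets, with more than 1 for Derl2, Edem1 and Sec61b. A model with 4 group means was fitted to all 12 arrays with limma 3.58.1 in R 4.3.3 (8 residual and 4.56 prior degrees of freedom), two-sided, with Benjamini-Hochberg adjustment over all genes and a threshold of 0.05. The median SD within a group was 0.092 for members and 0.13 for all genes. The fit was also run on simulated data with known changes, which checks the code and says nothing about the changes of the members. Values of every array are given for members past the threshold in at least 3 comparisons or in any comparison between genotypes, for the sensors and Xbp1, and for the largest day 4 changes of each role. Of other lists, at most 2 genes of smallest p per day 4 comparison are named. The members and lists were chosen with earlier results of these data known. Motifs were searched on both strands of the RefSeq windows. Protein sequences were not used here.

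The alternatives were a filter on low levels, quantile normalization, centring on array medians, averaging or testing all probe sets, array weights, a prior that was trended and robust, fits to the groups compared, a minimum change of 2-fold, a replicate block, a threshold of 0.01, and the omission of each array or of a pair.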

Additional observations from a re-analysis of the deposited data

Results flagged for a closer look

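The difference between the day 4 changes, KO minus WT, was tested with limma for each named gene. It passed for 0 of the 34 members and for 4 of the 17 named genes that are no members. P3h2 had a difference of -1.21 ± 0.16 (adjusted p = 0.00232), with changes of -0.36 in KO cells and 0.85 in WT cells. Hspa1b had a difference of 1.07 ± 0.17 (adjusted p = 0.00507), with changes of -0.12 in KO cells and -1.19 in WT cells. Dcn, which rose further in WT cells, had a difference of -0.7 ± 0.15 (adjusted p = 0.0273). Magt1, which fell further in KO cells, had a difference of -0.49 ± 0.12 (adjusted p = 0.0366). Each group held 3 arrays, too few for a test of single outlying arrays.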

How the results depend on the processing

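None of the 47 called member changes reversed its direction under the 12 alternatives or the 12 omissions of 1 array. Many of these could not reverse one. The level filter, the test of all probe sets, the prior and the replicate block kept each change as it was. So did the fits to the groups compared, the 2-fold minimum, the threshold of 0.01 and the omission of an array outside the comparison. With 1 array left out, the number of members past the threshold ran from 18 to 21 for KO day 4 against day 0 (20 with all arrays), 14 to 19 for WT day 4 against day 0 (17), 5 to 12 for KO against WT at day 4 (9), 0 to 2 for KO against WT at day 0 (1) and 0 to 2 for the difference of the day 4 changes (0). The count for KO against WT at day 4 fell to 5 without WT day 4 array 2. That was 14.7% of the members against 15% of all genes, so in that fit the members' share was no higher. Asking for a 2-fold change left 0 members in both day 4 comparisons and in both genotype comparisons. Few of all genes were left either: 3.76% for KO day 4 against day 0 and 3.51% for WT day 4 against day 0. For KO against WT it was 1.49% at day 4 and 1.23% at day 0. A threshold of 0.01 left 18 for KO day 4 against day 0 (52.9% of the members, 20.6% of all genes) and 10 for WT day 4 against day 0 (29.4% and 14.8%). It left 5 for KO against WT at day 4 (14.7% and 10.4%) and 0 at day 0 (2.84% of all genes). Fits to the groups compared alone have fewer degrees of freedom and do not share the spread of the other groups. They gave 5 for KO against WT at day 4 and 3 at day 0, and could not be made for the difference of changes. At day 4 they passed 14.7% of the members and 8.67% of all genes, against 26.5% and 20.7% in the fit as reported. Mean correlations within a group were 0.9967 to 0.997 at day 0 and 0.9866 to 0.9913 in WT day 4. A trended and robust prior gave 2 at day 0 and 2 for the difference, array weights gave 4 and 2, and leaving out both KO day 4 array 2 and WT day 4 array 1 gave 2 and 4. The shares of all genes moved too: at day 0 they were 11.1% in the fits to the groups compared (8.82% of the members), 6.2% with the prior (5.88%), 11.6% with array weights (11.8%) and 9.76% without both arrays (5.88%), against 5.6% in the fit as reported (2.94%). For the difference they were 5.8%, 8.35% and 11.4% under the last 3 of these (5.88%, 5.88% and 11.8% of the members), against 3.95%. Why these counts moved was not tested beyond that.

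Same-numbered arrays of KO and WT at day 4 had correlations of deviations of -0.013, 0.182 and 0.116, and those of the other group pairs lay between -0.06 and 0.015. Differently numbered arrays of KO and WT at day 4 had correlations from -0.204 to 0.116. With 3 arrays per group these values cannot settle whether the numbers pair the samples, and the fit as reported does not pair them. With the replicate block 19 members passed for KO day 4, 18 for WT day 4, 9 for KO against WT at day 4, 1 at day 0 and 0 for the difference: Derl3 was lost in KO cells (adjusted p = 0.0624) and Dnajb9 gained in WT cells (adjusted p = 0.0495). Quantile normalization also ended the calls of Sel1l in WT cells (adjusted p = 0.0834), Serp1 and Derl3 in KO cells (0.0828 and 0.0623), and Hspa5 and Syvn1 between genotypes at day 4 (0.0571 and 0.0852). It gained Ppib as higher and Sec61b as lower in WT cells (0.0452 and 0.0348), Erp44 and Edem2 as higher and Fkbp11 as lower in KO cells (0.0228, 0.0353 and 0.0433), and Erp44 as higher in KO against WT at day 4 (0.0307).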
